A study of Mus musculus with 4 samples.

Results

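Nuclear genes for subunits of the mitochondrial respiratory chain and ATP synthase were followed through 4 RNA-seq libraries of embryonic mouse cerebral cortex. Members were the protein-coding rows present in both deposited tables whose symbols carry a subunit name (Nduf with A, B, C, S or V and a number, Sdha to Sdhd, Uqcr, Cyc1, Cox4 to Cox8 and Atp5). The rule gave 80 genes of the 20385 in both tables: 36 of complex I, 4 of complex II, 9 of complex III, 14 of complex IV and 17 of complex V. Cox6a2, the muscle-type copy of a complex IV subunit, was the 1 further match and is listed in a single table, with 1 count in WT 1 and 4 in KO 6. Of the 80 members, 79 had enough counts to be tested. Cox7a1 did not, with counts of 10 and 10 in the WT and 8 and 2 in the KO libraries. The names are old ones, so some members need a remark. Ndufa4 is now counted as a complex IV subunit and Atp5sl (now Dmac2) as a complex I assembly factor. Cox7a2l is now counted as a factor that joins complexes III and IV into supercomplexes. Atp5s, by its later name, is not a structural subunit.

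The libraries came from the cortex of C57BL/6 embryos at E16, namely 2 from wild type (WT 1 and WT 4) and 2 from a Cd93 knockout (KO 5 and KO 6). CD93 is a transmembrane C-type lectin receptor best known from endothelial cells. The knockout allele, the sex of the embryos and whether each library came from its own embryo are not given in the sources used here, so p-values measure the spread between these libraries, which may be technical. The whole cortex was used, so fewer cells of a type and less RNA per cell cannot be told apart. The authors deposited KO 6 with WT 1 in one table (table A) and KO 5 with WT 4 in another (table B), and that pairing is used below as a grouping of its own. What the tables stand for, such as a run or a day, is not given.

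Complex I takes electrons from NADH and complex II takes them from succinate, and both pass them to ubiquinone. Complex III hands them to cytochrome c and complex IV hands them to oxygen, while complexes I, III and IV pump protons that complex V uses to make ATP. Most subunits are encoded in the nucleus and imported, and a small core set is encoded in the mitochondrial genome. Many nuclear subunit promoters are known to bind NRF1, ETS-family factors such as GABP, and YY1.

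Library totals lay between 16318317 and 17586157 counts. Where a gene is given 4 counts below, they are in the order WT 1, WT 4, KO 5 and KO 6. Cd93 itself had 680, 409, 111 and 99 counts, which follows the genotype labels (log2 fold change -2.32, edgeR adjusted p 0.211). All 12 listed cortex markers passed the filter on low counts, with summed levels of 3933 to 4912 CPM (counts scaled to a common library total). Marker lists of neighbouring tissue and other cell types moved with libraries and with genotype: meningeal fibroblast genes summed to 484 CPM in WT 1 against 81.0, 40.9 and 56.4 in WT 4, KO 5 and KO 6, and ganglionic eminence genes to 1471 against 938, 758 and 903. Log2 fold changes in KO were below 0 in 9 of 9 meningeal genes (median -2.79), 14 of 14 ganglionic eminence genes (-1.21), 11 of 11 endothelial genes (-0.42) and 10 of 10 microglia and macrophage genes (-0.52). Of these, edgeR called 0 in each list, with 7, 7, 1 and 2 at an unadjusted p under 0.05, beside 1.94% of all tested genes. In WT 1, WT 4, KO 5 and KO 6, endothelial genes summed to 310, 191, 196 and 185 CPM. Microglia and macrophage genes summed to 98.5, 50.4, 46.6 and 50.8 CPM, so in both lists WT 1 stood apart. Median log2 differences for KO 6 minus WT 1 were -0.79 (endothelial) and -0.83 (microglia and macrophage). For KO 5 minus WT 4 they were 0.02 and -0.27. The part of these lists in the results on the respiratory chain was not tested.

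The members were among the most abundant genes for their length. On the scale of CPM per kilobase of reference transcript, their median was 76.5, against 9.62 over the tested protein-coding genes. Of the 80 members, 52, or 65%, lay in the top 10% of those genes. Median levels by complex were 50.8 for complex I, 59.8 for complex II, 81.6 for complex III, 120 for complex IV and 140 for complex V, each taken over the 4 libraries. Together the members took 0.796%, 0.719%, 0.712% and 0.804% of all counts in the 4 libraries. The 2 libraries of table A thus had the larger shares.

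The order of levels within each complex was wide. In complex V, Atp5b, the catalytic beta subunit, stood at 511, 478, 477 and 474 CPM per kilobase in the order given above, the highest of all members. Atp5s, a factor with a coupling-factor name, was the lowest of that complex at 6.28, 5.73, 6.41 and 7.13. In complex I, Ndufa4 averaged 211 ± 44.0 and Ndufc1, a small accessory subunit, 17.5 ± 1.85 (SD, n = 4). In complex II, Sdhb, the iron-sulfur subunit, averaged 102 ± 4.93 and Sdhc, a membrane anchor, 29.8 ± 1.73. In complex III, Uqcrh, the hinge protein, averaged 179 ± 38.1 and Uqcrb, which binds near the ubiquinone site, 53.8 ± 15.9. In complex IV, Cox6a1, the common form of subunit 6a, averaged 248 ± 2.93 and Cox7a1, a heart and muscle form, 1.10 ± 0.543. The SDs of Uqcrh and Uqcrb were large beside that of Cox6a1, and for both genes the libraries of the 2 tables lay apart, as described below.

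**Figure D1:**
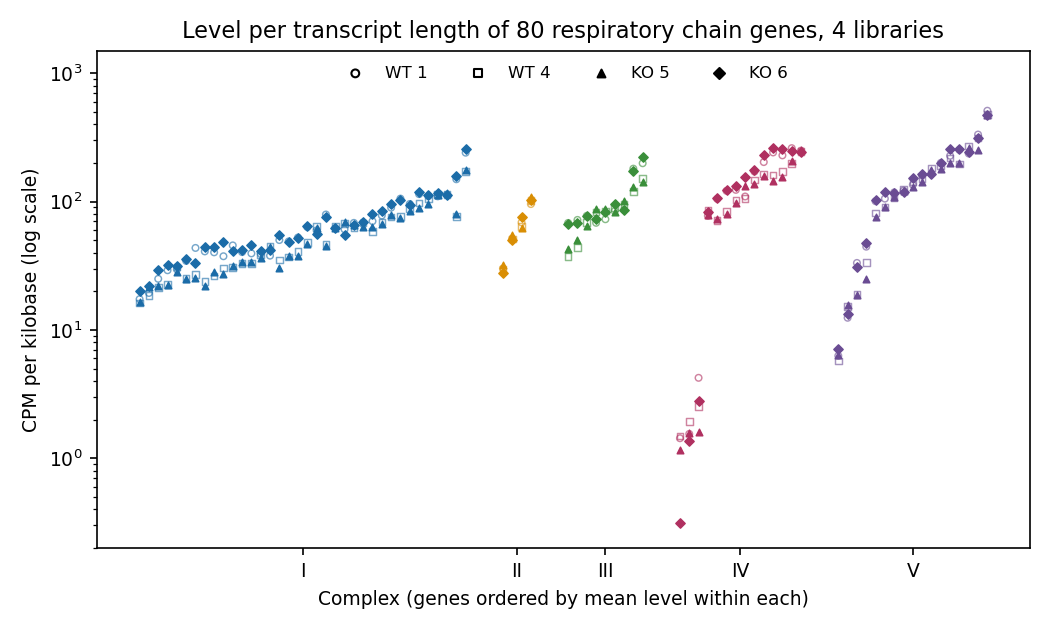
Level of each of the 80 genes in CPM per kilobase of reference transcript (log scale), grouped by complex and ordered by mean level, with 1 symbol per library (open for WT, filled for KO). Atp5b of complex V is highest at 474 to 511, and Cox7a1, Cox4i2 and Cox6b2 of complex IV lie below 5 in every library.

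Genes that share a subunit name were spread unevenly. Cox4i1, the general form of subunit 4, made up 98.7% to 99.2% of the Cox4i signal per length across the 4 libraries, and Cox4i2, a form of lung and oxygen sensing cells, had 20, 24, 20 and 16 counts in WT 1, WT 4, KO 5 and KO 6. Cox6b2, a testis form, made up at most 2.04% of the Cox6b pair in any library, the rest being Cox6b1. Among the 3 Cox7a genes, Cox7a2 took 42.0% to 52.6% and Cox7a2l 46.7% to 57.5%, while Cox7a1 took 0.108% to 0.709%. The 3 Atp5g genes encode the same mature c subunit of the ATP synthase rotor ring. Atp5g2 supplied 46.9% to 54.0% of their signal per length, Atp5g3 26.9% to 32.8% and Atp5g1 17.7% to 20.3%. Neither Cox7b2 nor Cox8b nor Cox8c was among the members, so Cox7b and Cox8a were the sole forms of their subunits among the members.

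Between genotypes no respiratory chain gene passed the test. Over all 16371 tested genes, edgeR's quasi-likelihood test called 0 higher in KO (0%) and 2 lower (0.0122%) at an adjusted p under 0.05. None of the 79 members was among them, and DESeq2 and limma-voom called 0 members too. A model with genotype blocked by table called 29 genes in edgeR, and again 0 members. At an unadjusted p under 0.05 there was 1 member, against 317 of all tested genes (1.94%). The median log2 fold change of the members was 0.01, with 45 above 0 and 34 below, beside a median of -0.003 and 49% above 0 over all tested genes. By complex the medians were 0.01 for complex I, 0.04 for complex II, 0.04 for complex III, 0.01 for complex IV and -0.02 for complex V. Both KO libraries lay above both WT libraries in 4 members (11.5% of all tested genes did so), and below them in 2 (11.9%). The 4 were Ndufb2, Sdhb, Cox7a2l and Atp5s, and the 2 were Atp5b and Atp5d, the last of these named after its values were seen.

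The 1 member with an unadjusted p under 0.05 was Cox7a2l. Its 4 counts were 2099, 1949, 2508 and 2721, so both KO libraries were above both WT libraries. In edgeR its log2 fold change reached 0.42 (SE 0.12), and the adjusted p was 0.9999. The authors' deposited table has log2 ratios of 0.48 (table A) and 0.33 (table B) for it, with adjusted p-values of 4.89e-29 and 2.33e-12 between single libraries. It is marked as significant in neither, and that mark also needs a 2-fold change. Cox7a2l has a processed retrocopy, Gm6969, and that row moved the opposite way. Its counts were 854 and 686 in the WT libraries against 5 and 4 in the KO libraries. By edgeR the log2 fold change of Gm6969 was -7.33 (SE 0.24, adjusted p 0.000402), and it is 1 of the 2 genes called lower.

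The last part of the reading frame of the gene and of its retrocopy is shown because it holds every base at which they differ, and reads from one can be counted for the other. Cox7a2l lies at chr17:83501919-83514333 on the minus strand, and Gm6969 at chr12:24638669-24639010 on the minus strand (GRCm38, sequences from the GENCODE transcripts). Capitals mark the bases that differ in the alignment, and the bases before this stretch are identical.
Cox7a2l, bases 187 to 336 of the reading frame: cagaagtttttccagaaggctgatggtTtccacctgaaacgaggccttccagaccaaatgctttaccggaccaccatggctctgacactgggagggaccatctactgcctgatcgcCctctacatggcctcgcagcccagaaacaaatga
Gm6969, the aligned 156 bases: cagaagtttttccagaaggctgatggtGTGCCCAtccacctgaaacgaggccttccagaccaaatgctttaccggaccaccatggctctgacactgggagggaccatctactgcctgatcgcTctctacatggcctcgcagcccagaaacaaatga
Over the whole frame, the 336 bases of Cox7a2l aligned with 342 bases of Gm6969. Of these, 334 were identical and 2 were substituted, and 6 bases of Gm6969 had no counterpart in Cox7a2l. Of the 25-base words of Gm6969, 82.4% occur in Cox7a2l transcripts. C57BL/6 mice are known to carry a shorter form of Cox7a2l than several other strains, and the reference genome is that of C57BL/6J.

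Summed over both rows, the difference between genotypes in Cox7a2l was within the spread of the libraries. The summed counts were 2953, 2635, 2513 and 2725. Scaled to depth, the WT mean was 160 ± 8.02 CPM and the KO mean 156 ± 17.3 CPM (SD, n = 2 each), with KO 6 highest and KO 5 lowest. Gm6969 held 28.9% and 26.0% of the sum in the WT libraries, against 0.199% and 0.147% in the KO libraries. With the counts of every retrocopy added to its gene, a setting chosen after the data were seen, Cox7a2l had a log2 fold change of -0.04 (SE 0.12) and an edgeR p of 0.730 before adjustment. The share of the summed counts on each row thus differed between genotypes, and the sum did so by less than its error. The cause of the different shares was not tested.

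**Figure D2:**
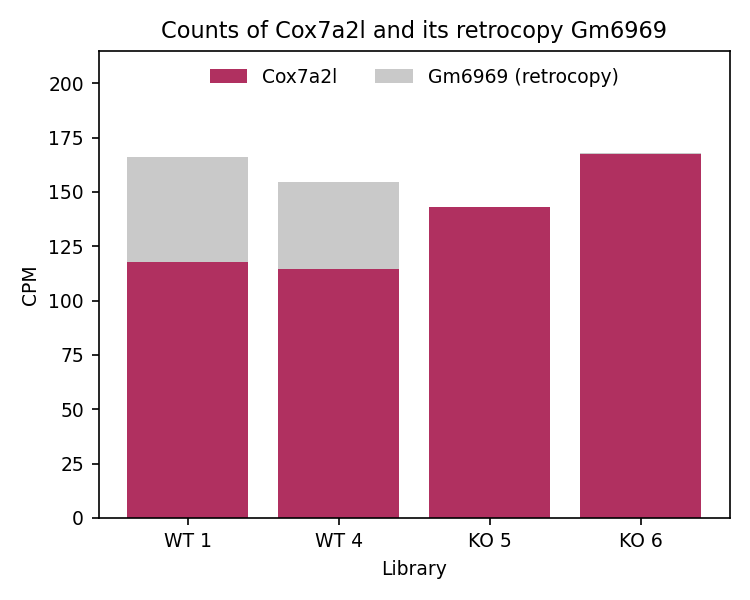
Stacked bars of the level of Cox7a2l and of its retrocopy Gm6969 in CPM, 1 bar per library. The whole bar is the sum of both rows, 143 to 168 CPM. The retrocopy makes up 26.0% to 28.9% of the bar in WT and under 1% in KO.

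Complex I showed no member past the test between genotypes, and its 36 log2 fold changes ran from -0.26 to 0.20. The members of smallest p were Ndufb2, Ndufa3 and Ndufa6, all accessory subunits. Ndufb2, of the membrane arm, had 157, 144, 172 and 163 counts. The WT level was 8.64 ± 0.264 CPM and the KO level 9.92 ± 0.161 CPM, with a log2 fold change of 0.20 (SE 0.19). Its groups did not overlap, but the counts are few. Ndufa3 had 399, 237, 231 and 279 counts and a log2 fold change of -0.26 (SE 0.26), with WT 1 apart from the other 3. Ndufa6 had 739, 589, 655 and 762 counts, with overlapping groups. The 7 core subunits that carry the flavin and iron-sulfur clusters had a median of -0.02 and the 29 accessory subunits one of 0.02.

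Complex II is the 1 complex without mitochondrially encoded subunits, and it doubles as an enzyme of the citric acid cycle. Sdhb had 1944, 1980, 2157 and 1902 counts, with a WT level of 113 ± 4.90 CPM and a KO level of 120 ± 4.17 CPM. Its log2 fold change was 0.09 (SE 0.10), and the groups just failed to overlap. Sdhd, a membrane anchor, had 1509, 1343, 1346 and 1510 counts, and on the CPM scale its KO libraries lay at either end of the range. Sdha, the flavoprotein, and Sdhc had log2 fold changes of 0.02 and -0.01. No member of complex II passed the test.

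In complex III the members of smallest p were Uqcrfs1, the Rieske iron-sulfur protein, and Cyc1, cytochrome c1. Uqcrfs1 had 1767, 1961, 2080 and 1821 counts and Cyc1 1849, 2156, 2333 and 1806. For both genes WT 1 and KO 6 were the lower libraries of the 4 in raw counts, and the log2 fold changes of 0.11 (SE 0.11) and 0.08 (SE 0.14) did not pass. The 9 members ran from -0.05 to 0.11.

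Complex IV members besides Cox7a2l ran between Cox6b2 and genes near 0. Cox6b2 had 35, 20, 13 and 21 counts and the lowest log2 fold change of all members, -0.63 (SE 0.47). Its KO 6 and WT 4 values overlapped in raw counts, and the numbers are small. Cox4i2 had a log2 fold change of -0.25 (SE 0.39). The general isoforms lay near 0: Cox4i1 at -0.03, Cox6a1 at 0.005, Cox6b1 at 0.07, Cox7a2 at 0.02, Cox7b at 0.03 and Cox8a at -0.004. The sign of Cox6a1 and Cox8a changed with the scaling or the model, so no direction is given for them.

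In complex V the members of smallest p were Atp5g2, Atp5s and Atp5j2. Atp5g2 had 2615, 2347, 1951 and 2246 counts, with levels of 142 ± 6.54 CPM (WT) and 125 ± 19.1 CPM (KO) and a log2 fold change of -0.19 (SE 0.13). KO 5 was the low library, and KO 6 lay among the WT values. The other c subunit genes had log2 fold changes of 0.01 for Atp5g1 and -0.03 for Atp5g3. Atp5s had 166, 145, 167 and 172 counts and 0.17 (SE 0.20). Atp5j2, of the membrane sector, had 1793, 1478, 1525 and 1841 counts and 0.09 (SE 0.15). Atp5b had 17426, 15618, 16016 and 14756 counts, with levels of 948 ± 44.5 CPM (WT) and 911 ± 3.36 CPM (KO) and a log2 fold change of -0.06 (SE 0.11). Atp5d, the delta subunit of the central stalk, had 2017, 1995, 1965 and 1786 counts and -0.05.

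The summed level of each complex overlapped between genotypes or differed by little. In WT 1, WT 4, KO 5 and KO 6, complex I summed to 2180, 1882, 1855 and 2248 CPM, with the KO libraries at the 2 ends of the range. Complex II summed to 439, 438, 459 and 443 CPM, with both KO libraries above both WT libraries. Complex III summed to 790, 769, 780 and 838 CPM, complex IV to 1248, 1018, 1016 and 1347 CPM, and complex V to 3206, 3128, 3014 and 3204 CPM. The exact two-sided permutation test over the 4 libraries gave p = 1, 0.333, 0.667, 1 and 0.667 for complexes I to V, and an adjusted p of 1 for each over the 5. This design allows no p below 0.333. Complexes I, III, IV and V were highest in WT 1 and KO 6, the pair deposited together, and complex II was not.

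**Figure D3:**
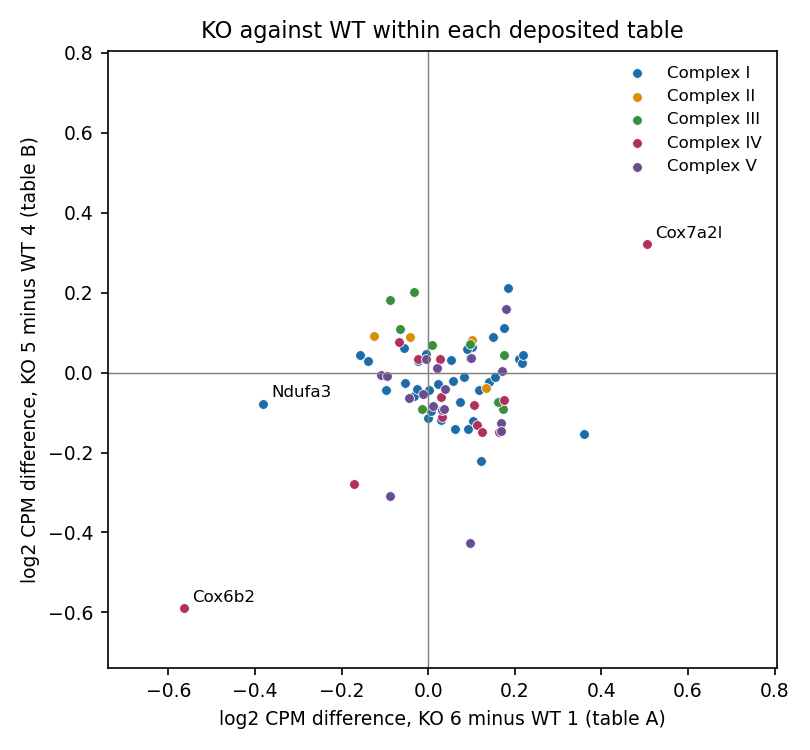
Difference between KO and WT in log2 CPM for the 79 tested genes, in table A (KO 6 minus WT 1) and in table B (KO 5 minus WT 4), coloured by complex. Most points lie near 0 on both axes. Cox7a2l is at the upper right, at 0.51 and 0.32, and Cox6b2 at the lower left, at -0.56 and -0.59.

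The 2 within-table differences share no library. Across the 79 members, which are not independent replicates, they had a Pearson r of 0.32 and a Spearman rho of -0.009, and 20 members were higher in KO in both tables (22.3% of all tested genes were) while 14 were lower in both (22.9%). The medians of the members were 0.04 (table A) and -0.03 (table B). In the authors' deposited table, 17 of 81 matching genes in table A had an adjusted p under 0.05 (11 higher and 6 lower, against 21.2% of all its genes), and 6 of 80 in table B (1 higher and 5 lower, against 12.9%). Those p-values set 1 library against 1 library, and the authors marked 0 of these genes as significant in either table.

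The libraries of table A carried more counts of many subunit genes than those of table B, in both genotypes. This contrast was added after the data were seen, with genotype kept in the model. Of all tested genes, 189 were higher (1.15%) and 76 lower (0.464%) in table A by edgeR at an adjusted p under 0.05. Of the 79 members, 13 were higher and 0 lower, all from complexes I, III and IV. At an unadjusted p under 0.05 there were 42 members, beside 12.4% of all tested genes. The median log2 difference of the members was 0.24, with 60 above 0 and 19 below, against a median of 0.01 over all tested genes. Both table A libraries lay above both table B libraries in 52 members (23% of all tested genes), and below them in 12 (22.8%). The member count called moves with single libraries: it was 0 without WT 4, 1 without KO 5, 21 without WT 1 and 19 without KO 6. These fits have no genotype term, and with all 4 libraries and no such term it was 8. The differences stayed near their size where calls were lost, with a member median of 0.26 without WT 4 and 0.23 without KO 5, and Ndufc2 at 0.94 and 1.01.

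Of the 13 called members, 6 kept their call in every alternative that used all libraries (Ndufc2, Ndufb3, Ndufa5, Cox6c, Cox5b and Cox7b), and 7 lost it in at least 1. By role, 6 of the 13 are accessory subunits named for complex I. Ndufc2, of the membrane arm, had 1815 counts in WT 1 and 1764 in KO 6 against 891 in WT 4 and 955 in KO 5. That was 105 ± 4.67 CPM in table A and 53.4 ± 1.54 CPM in table B, 1.97-fold, with a log2 difference of 0.98 (SE 0.09) and an edgeR adjusted p of 0.000282. Ndufa5, of the peripheral arm, had 637 and 625 counts against 356 and 337, a log2 difference of 0.89 (SE 0.13). Ndufb3, of the membrane arm, had 1077 and 947 against 601 and 607, a log2 difference of 0.77 (SE 0.10). In all 3 genes the 2 libraries of a table lay close together whatever their genotype. Ndufs6 and Ndufs4, subunits of the peripheral arm mutated in human complex I deficiency, differed by 0.69 (SE 0.15, edgeR adjusted p 0.0494) and 0.47 (SE 0.10, edgeR adjusted p 0.0470). For Ndufs6 the adjusted p was 0.280 with DESeq2, and in edgeR 0.113 with library totals and 0.0873 without the genotype term. Ndufa4 had 2612 and 2551 counts against 1784 and 1884, a log2 difference of 0.52 (SE 0.10).

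Complexes III and IV gave the other 7. Uqcrb had 649 counts in WT 1 and 579 in KO 6 against 340 in WT 4 and 403 in KO 5, a log2 difference of 0.75 (SE 0.13, edgeR adjusted p 0.0185). Uqcrh and Uqcrq, small accessory subunits, differed by 0.52 (SE 0.10) and 0.50 (SE 0.10). Cox6c had 2163 and 2151 counts against 1379 and 1281, a log2 difference of 0.72 (SE 0.10, edgeR adjusted p 0.00588). Cox5b, which binds zinc, had 1868 and 1739 against 1239 and 1223, a log2 difference of 0.57 (SE 0.09). Cox7b, which is X-linked, had 1871 and 1740 against 1214 and 1279, and Cox7c 2204 and 2255 against 1575 and 1461, with log2 differences of 0.56 (SE 0.09) and 0.58 (SE 0.11). None of these 7 is a catalytic subunit.

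The difference between tables was uneven within and between complexes. By complex the medians were 0.30 for complex I, -0.07 for complex II, 0.21 for complex III, 0.36 for complex IV and 0.14 for complex V. Within complex I the 7 core subunits had a median of -0.03 and the 29 accessory subunits one of 0.38. The median reference transcript was 1623 bases long for the core and 704 for the accessory subunits. For complexes I to V it was 812, 2065.5, 547, 645 and 838 bases. The part of length in these differences between complexes and roles was not tested. Ndufv1, the core subunit that binds NADH, had 2034, 1922, 1852 and 1866 counts, and its log2 difference between tables was 0.07. Cyc1 had the lowest log2 difference of the members, -0.27 (SE 0.10, edgeR adjusted p 0.247), with both table A libraries under both table B libraries. Cox6a1 had 2538, 2392, 2520 and 2280 counts and -0.005, and Atp5b 0.04. Of the 17 complex V members 0 passed by edgeR, and 6 had an unadjusted p under 0.05.

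**Figure D4:**
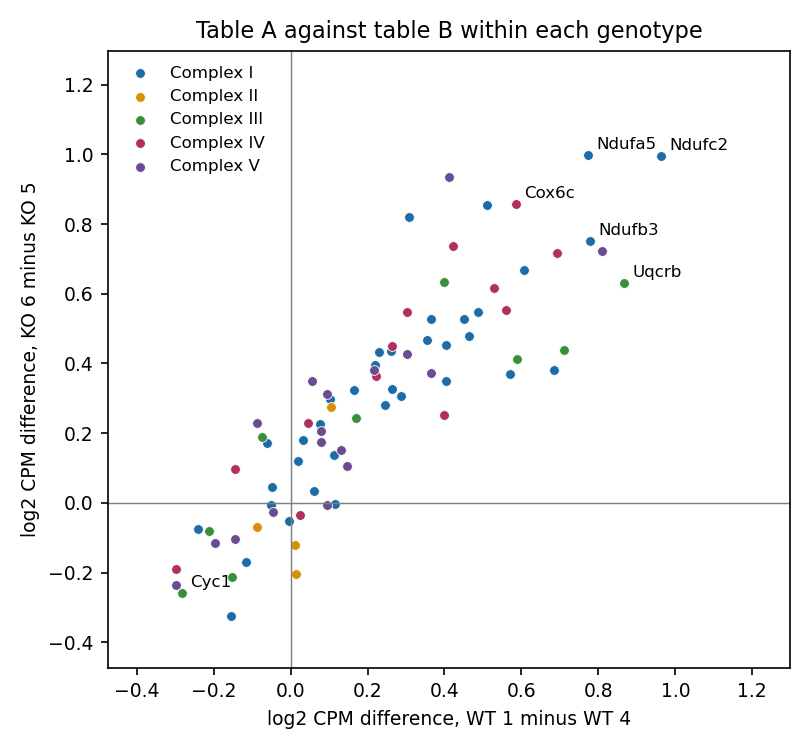
Difference between tables in log2 CPM for the 79 tested genes, in WT (WT 1 minus WT 4) and in KO (KO 6 minus KO 5), coloured by complex. The points follow a rising band with Pearson r 0.87. Ndufc2 is at 0.96 and 0.99, and Cyc1 is at -0.28 and -0.26.

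The table difference recurred in each genotype. WT 1 minus WT 4 and KO 6 minus KO 5 share no library, and across the 79 members they had a Pearson r of 0.87 and a Spearman rho of 0.90, with medians of 0.17 and 0.31. A total of 55 members were higher in table A in both genotypes (29.7% of all tested genes were) and 14 lower in both (28.4%). Genes of a table share whatever set that table apart, so this is a description of 4 libraries.

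Members with short transcripts had the larger table differences. Their median reference transcript was 763 bases long, against 2944.5 for tested protein-coding genes. Across members the log2 difference between tables had a Pearson r of -0.51 with the logarithm of length and a Spearman rho of -0.51. Over all 13824 tested protein-coding genes with a length, which are mostly longer, r was -0.047 and rho -0.043. The medians of other protein-coding genes were above 0 in the shorter length classes. For transcripts of 500 to 700 bases the median difference was 0.42 in 24 members and 0.26 in 179 other protein-coding genes. For 700 to 1000 bases it was 0.29 in 17 members and 0.11 in 523 others. For 1000 to 1500 bases it was 0.19 in 13 members and 0.03 in 1325 others. For 1500 to 2500 bases it was 0.04 in 13 members and -0.01 in 3283 others. Under 500 bases, 9 members had 0.50 and 79 others 0.34, and from 2500 bases 3 members had -0.05 and 8356 others -0.01. Members lay above the other genes in the 5 shorter classes, and whether these gaps exceed the spread among genes was not tested. Base composition was set beside the table differences as well. Across members the Spearman rho with transcript GC content was -0.22 for WT 1 minus WT 4 and -0.28 for KO 6 minus KO 5. Across tested protein-coding genes KO 6 minus KO 5 had a rho of -0.35 with it. In WT that rho was 5.6e-05.

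**Figure D5:**
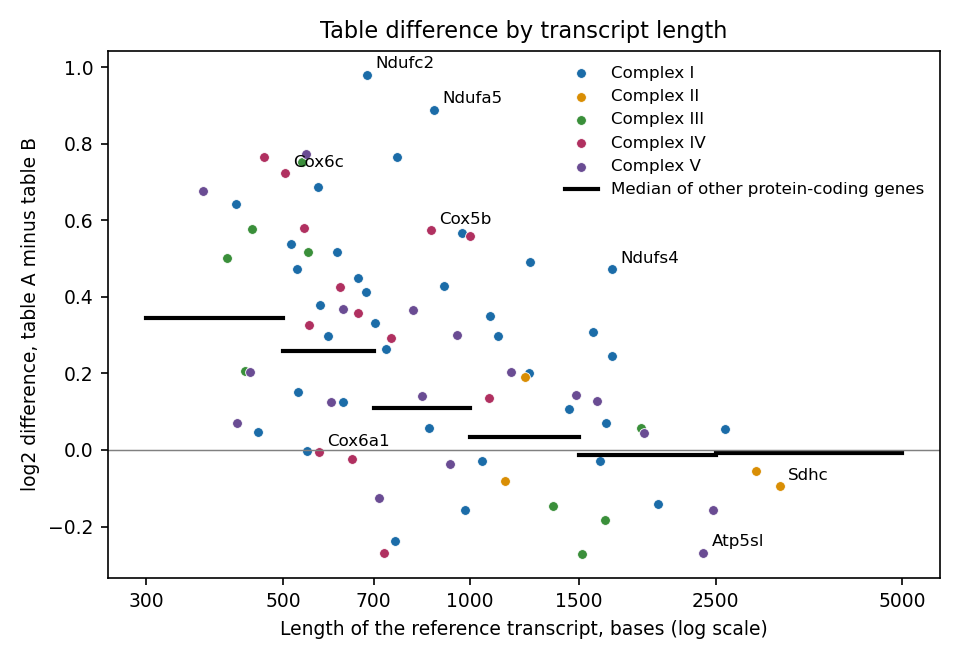
Log2 difference between table A and table B (genotype in the model) against the length of the reference transcript (log scale) for the 79 tested genes, coloured by complex. Black bars give the median of other tested protein-coding genes in each length class, from 0.34 under 500 bases to -0.01 from 2500 bases. Ndufc2 and Ndufa5 lie highest, at 0.98 and 0.89.

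Other genes of the same pathway and of like size give the setting. Of all tested genes, edgeR called 1.15% higher and 0.464% lower in table A, and 12.4% had an unadjusted p under 0.05. The mitochondrially encoded subunits, 12 tested, had 5 called higher in table A and a median of 0.58. The 2 of smallest p were mt-Co3, a core subunit of complex IV, and mt-Atp6, the proton channel subunit of complex V. For mt-Co3 there were 3224 counts in WT 1 and 3471 in KO 6 against 793 in WT 4 and 768 in KO 5. For mt-Atp6 there were 1723 and 1596 against 498 and 447. The log2 differences of the list ran from 0.16 to 2.65. The far more abundant mt-Co1 had 234938 and 252419 counts against 227061 and 215984. Summed levels of the list were 35539, 32277, 29520 and 40586 CPM in WT 1, WT 4, KO 5 and KO 6. Cytosolic ribosomal protein genes, which are short as well with a median of 777.5 bases, had 17 of 84 called higher, 0 lower and a median of 0.23. Mitochondrial ribosomal protein genes had 2 of 77 called higher, Mrpl20 at 0.71 and Mrpl52 at 0.52, and a median of 0.05. Assembly factors of the chain had 0 of 48 called by edgeR, 5 of them at an unadjusted p under 0.05, and a median of 0.05. Citric acid cycle enzymes had 0 of 18 called by edgeR, 2 of them at an unadjusted p under 0.05, and a median of -0.03. In a list of carriers and regulators, 2 of 22 were called, 2010107E04Rik at 0.90 and Usmg5 at 0.81, both small proteins bound to ATP synthase. Between genotypes edgeR called 0 genes in each of these lists, with 0 to 2 genes a list at an unadjusted p under 0.05, beside 1.94% of all tested genes.

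The cell-type lists also differed between tables, and their part in the table difference of the members was not tested. Ganglionic eminence markers had 9 of 14 called higher in table A and a median of 0.92, and meningeal fibroblast markers 5 of 9 and 1.91. Cortex markers had 4 of 12 called lower and a median of -0.30. Of all tested genes, 1.15% were called higher and 0.464% lower. Both table A libraries lay above both table B libraries in 5 ganglionic eminence and 3 meningeal genes (23% of all tested genes). They lay below them in 8 cortex markers (22.8%). Medians of WT 1 minus WT 4 and KO 6 minus KO 5 were 1.01 and 0.73 (ganglionic eminence), 2.67 and 0.66 (meningeal) and -0.41 and -0.32 (cortex).

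Promoter sequence was read for the members because the genes of 1 chain are known to share regulators. RefSeq windows from 250 bases before to 50 bases after the start (GRCm38.p6) matched 64 of the 80 members, with 69 windows. The letters GCGCA, any base and GCGC in a row, searched on both strands as an NRF1 motif, occurred in 26.1% of these windows, against 8.56% of 15083 windows of protein-coding genes in both tables and 4.60% of all 32851 windows. CCGGAAG, for ETS factors, occurred in 23.2% against 14.8% and 8.86%, and AANATGGC, for YY1, in 23.2% against 7.23% and 6.05%. These are matches of letters and not measured binding. A stretch of 170 bases just before the start is shown for a member that differed between tables (Ndufs6, whose call was lost in the alternatives given above, chr13:73328483-73328652, minus strand) and for one that did not pass (Cox6a1, chr5:115348959-115349128, minus strand), with motif matches on either strand in capitals.
Ndufs6: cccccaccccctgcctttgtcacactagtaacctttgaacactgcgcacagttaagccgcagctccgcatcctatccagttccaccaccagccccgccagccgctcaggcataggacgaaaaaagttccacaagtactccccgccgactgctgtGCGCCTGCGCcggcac
Cox6a1: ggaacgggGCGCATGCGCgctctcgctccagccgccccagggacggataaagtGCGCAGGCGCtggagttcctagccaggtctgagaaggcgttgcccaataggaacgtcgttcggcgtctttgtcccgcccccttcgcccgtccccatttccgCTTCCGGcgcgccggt
Both stretches hold the NRF1 letters, Cox6a1 in 2 places and with the ETS letters close to the start. Tested members with an NRF1 match in a window (17) had a median table difference of 0.20 and those without (46) one of 0.30, and their medians between genotypes were 0.02 and 0.02.

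Retrocopies share sequence with several members. Pseudogene rows that share at least 50% of their 25-base words with a member numbered 17, for 13 members, among 1348 pseudogene rows in both tables. Their counts came to 1.56%, 1.35%, 0.819% and 1.01% of those of all members in the 4 libraries. The gene Atp5l, for the g subunit of complex V, had 322, 175, 179 and 275 counts, and its copy Gm10221 had 338, 239, 222 and 383, more than the gene itself in every library. All 25-base words of Gm10221 occur in Atp5l, and how the counting treated reads of such shared sequence is not given. With the copies added, the log2 difference of Atp5l between tables was 0.71 (SE 0.13, edgeR adjusted p 0.0187), against 0.77 and an adjusted p of 0.0624 for the gene row alone. Ndufb4 and Ndufs5 also passed with the copies added, at 0.64 (SE 0.13) and 0.48 (SE 0.10). Their edgeR adjusted p-values went from 0.0883 to 0.0389 and from 0.0522 to 0.0483. The log2 difference of Ndufs6 was 0.66 with the copies added, and its edgeR adjusted p went from 0.0494 to 0.0531. Gm12338, a copy of Cox7c, had 252, 78, 156 and 217 counts beside 2204, 1575, 1461 and 2255 for the gene. Values of these members are uncertain to that extent. Of the 80 members, 35 overlap another annotated gene, 27 of them on the opposite strand and 6 with a protein-coding gene on the same strand. Whether the counting used strand is not stated, and reads of such partners cannot be told apart here.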

How the data were processed

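RNA from 4 libraries was analysed from the authors' deposited tables, which hold whole counts per gene, per the file headers. Their log2 fold changes and p-values, deposited by the authors, compare 1 library with 1 library. Tools in the submitters' processing notes are HTSeq 0.6.0, TopHat2 2.0.12 and Bowtie2 2.2.3, with the build mm9, while the deposited positions are those of GRCm38. Genes in both tables were filtered with filterByExpr, scaled by TMM (factors 0.994 to 1.012) and tested with edgeR 4.0.16 (quasi-likelihood, two-sided, Benjamini-Hochberg over 16371 genes, adjusted p under 0.05) in R 4.3.3. Log2 CPM used a prior count of 2. Alternatives used DESeq2 1.42.0 and limma 3.58.1. Lengths and coding sequences came from GENCODE mouse release 21, with the shortest transcript of best APPRIS rank and support, chosen after values were seen. Replicates of a genotype differed beyond sampling noise (chi-square per degree of freedom 16.3 in WT and 17.9 in KO). Members, lists and named genes (highest, lowest and smallest p per complex, isoform groups, complex I core, called genes; 1 core gene is not reported here) were chosen with earlier results of these data known. The scripts were tested on simulated data.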

Additional observations from a re-analysis of the deposited data

How the results depend on the processing

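Between genotypes, the number of genes called by edgeR, 2 as reported, was 29 with the deposited table as a block, 0 among protein-coding genes alone and 5 to 312 on leaving out 1 library, and DESeq2 called 8. Replicate numbers pair nothing, since the genotypes share none, so the deposited table is the sole block. Respiratory chain genes called stayed at 0 in these alternatives. On leaving out 1 library, median log2 fold changes ran from -0.13 to 0.17 for the members, -0.12 to 0.20 for complex I, 0.010 to 0.089 for complex II, -0.17 to 0.14 for complex III, -0.22 to 0.19 for complex IV and -0.10 to 0.076 for complex V, and log2 ratios of summed levels ran from -0.13 to 0.15 for complex I, -0.16 to 0.25 for complex IV and -0.071 to 0.017 for complex V. Of 136 values of named genes with 1 library left out, 42 changed sign, as did 5 of 243 in other alternatives: Cox6a1 was -0.0025 with library totals, Cox8a was 0.0036 with limma-voom, 0.0036 with the table as a block and 0.0014 among protein-coding genes alone, and Cox7a2l was -0.044 with retrocopy counts added. The ranges with 1 library left out were -0.051 to 0.090 for Atp5g1, -0.10 to 0.047 for Atp5g3, -0.10 to 0.28 for Atp5j2, -0.075 to 0.23 for Atp5sl, -0.22 to 0.14 for Cox4i1, -0.010 to 0.027 for Cox6a1, -0.22 to 0.32 for Cox6b1, -0.21 to 0.23 for Cox7a2, -0.27 to 0.34 for Cox7b, -0.18 to 0.21 for Cox8a, -0.050 to 0.24 for Cyc1, -0.56 to 0.13 for Ndufa3, -0.22 to 0.34 for Ndufa4, -0.022 to 0.30 for Ndufa6, -0.024 to 0.27 for Ndufc1, -0.11 to 0.062 for Ndufs1, -0.045 to 0.010 for Ndufs3, -0.22 to 0.11 for Ndufs7, -0.046 to 0.20 for Ndufs8, -0.10 to 0.018 for Ndufv1, -0.12 to 0.20 for Ndufv2, -0.12 to 0.090 for Sdhc, -0.088 to 0.19 for Sdhd, -0.31 to 0.55 for Uqcrb and -0.28 to 0.35 for Uqcrh.

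Between tables, 265 genes and 13 members were called. These were 115 and 6 with library totals, 477 and 20 without a filter on low counts, 160 and 8 with DESeq2, 103 and 8 without the genotype term, and 33 to 944 and 0 to 21 on leaving out 1 library. The members' median then ran from 0.19 to 0.30. The causes were not tested. With 2 libraries a group, small differences are not detectable at this depth, and counts under 50, as in Cox6b2, Cox4i2 and Cox7a1, limit those genes.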
